A study of Mus musculus with 2 samples.

Results

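The genes described here make and check secreted proteins: the chaperones, oxidoreductases and degradation factors of the endoplasmic reticulum (ER), the enzymes that process newly made collagen, and the heat shock proteins of the cytosol and mitochondria. They were chosen as a list of 42 gene symbols, and every probe set whose platform symbol is exactly one of them was taken. Of the 42, 41 were found, on 92 probe sets, among 18193 named genes on the array. No probe set was named Fkbp10, so it was not analysed here.

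Superficial zone cells are the flattened chondrocytes of the surface layer of articular cartilage. They were taken from joints of the femur and tibia of postnatal day 4 ICR mice, an outbred stock, and were grown in DMEM with 10% serum. 1 culture received 10 μM retinoic acid, the active form of vitamin A, for 24 h (n = 1), and the control culture received none (n = 1). The labels name no vehicle for the control and do not say how many animals each culture held. RNA from each culture was read on 1 Affymetrix Mouse Genome 430 2.0 array.

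The unit throughout is the MAS5 signal, a linear intensity per probe set, and a gene is represented by its brightest probe set. A log2 ratio above 0 means more signal with retinoic acid. With 1 array per group no difference has a replicate check and no test was run, so every fold describes these 2 arrays, whose number limits the precision. The only repeat measurement was between probe sets of one gene. Its pooled SD was 0.30 on the log2 scale over 4993 genes with several probe sets above the median signal, and it holds no variation between cultures.

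Proteins that enter the ER are folded by chaperones of the Hsp70 and Hsp90 families and by lectin chaperones, and their disulfide bonds are formed by protein disulfide isomerases. When unfolded protein accumulates, the sensors encoded by Ern1, Atf6 and Eif2ak3 start the unfolded protein response, which raises transcription of chaperones and of ER-associated degradation genes. Chondrocytes and fibroblasts load this machinery with procollagen, whose prolines and lysines are hydroxylated in the ER before the triple helix closes. The heat shock response is a separate program for the cytosol and nucleus, driven by heat shock factors.

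The ER stress response element (ERSE), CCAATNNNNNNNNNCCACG, is the motif bound by ATF6 together with the CCAAT-binding factor NF-Y, and is the sequence feature by which many of these genes are known. The promoter windows of RefSeq (build GRCm38.p6, 250 bases before to 50 after each annotated start) were searched on both strands, and 35 of the 42 genes had a window. Atf6, Derl1, Fkbp10, Hspa8, Hyou1, Manf and Plod2 were not in that table. The ERSE occurred in 9 of the 35 genes and in 0.137% of all 27025 genes of the table (0.119% of 32851 windows). The matches are printed below with 10 bases on each side, in the direction in which the motif reads, with the motif in capitals, to show the letters of each match. The capitals outside the 9 middle bases are the same in every gene because the search required them.
Hspa5 (chr2:34772015-34772053, plus strand): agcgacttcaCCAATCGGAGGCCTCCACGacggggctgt
Hsp90b1, nearer match (chr10:86705523-86705561, plus strand): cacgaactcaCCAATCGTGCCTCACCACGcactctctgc
Hsp90b1, farther match (chr10:86705628-86705666, minus strand): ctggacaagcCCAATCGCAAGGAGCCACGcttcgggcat
Calr (chr8:84847065-84847103, plus strand): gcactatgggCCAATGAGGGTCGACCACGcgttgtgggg
Canx (chr11:50325790-50325828, minus strand): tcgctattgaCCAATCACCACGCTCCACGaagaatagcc
Creld2 (chr15:88819510-88819548, minus strand): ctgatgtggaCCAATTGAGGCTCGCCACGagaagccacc
Derl3 (chr10:75893232-75893270, minus strand): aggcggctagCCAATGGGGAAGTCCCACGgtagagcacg
Dnajc3 (chr14:118937817-118937855, plus strand): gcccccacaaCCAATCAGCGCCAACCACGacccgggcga
Pdia6 (chr12:17266481-17266519, plus strand): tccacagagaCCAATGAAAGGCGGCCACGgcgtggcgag
Syvn1 (chr19:6046522-6046560, plus strand): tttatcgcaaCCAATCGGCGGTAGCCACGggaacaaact

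A shorter relative of that motif, ERSE-II (ATTGGNCCACG), was found in Herpud1 and Dnajb11, and in 0.0444% of all genes of the table. In Herpud1 it lay 52 to 42 bases before the start, and in Dnajb11 after the start. The 250 bases before the start of Herpud1, the member with the lowest ratio below, are printed with ERSE-II in capitals, and those of Hspa5, the best known target of the unfolded protein response, with the ERSE in capitals.
Herpud1 (chr8:94386179-94386428, plus strand): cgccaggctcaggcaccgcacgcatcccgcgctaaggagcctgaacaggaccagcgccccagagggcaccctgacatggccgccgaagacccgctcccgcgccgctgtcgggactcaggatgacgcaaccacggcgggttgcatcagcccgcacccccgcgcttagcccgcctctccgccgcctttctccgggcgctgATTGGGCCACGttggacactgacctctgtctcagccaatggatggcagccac
Hspa5 (chr2:34771840-34772089, plus strand): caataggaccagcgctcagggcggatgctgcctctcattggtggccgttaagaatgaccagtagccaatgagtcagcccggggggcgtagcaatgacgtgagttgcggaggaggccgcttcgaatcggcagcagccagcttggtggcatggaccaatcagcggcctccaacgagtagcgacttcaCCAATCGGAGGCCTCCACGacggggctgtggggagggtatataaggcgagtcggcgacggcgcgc

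As a whole the list moved little. The chaperone and isomerase members of the ER stayed within 1.5-fold of control. The 7 members of ER-associated degradation were all on the lower side, with Herpud1 farthest. Of 24 other measured genes of that pathway, 14 were below 0 (58.3%, against 48.4% of all genes). The collagen processing members split, with P4ha1 higher and P4ha3 lower. Of the 41 genes, 40 had a signal above the median on both arrays, and Derl3 on the control array only. At least 2-fold lower were 2 of 41 (4.88%), Herpud1 and P4ha3, against 4.34% of all 11884 measured genes. At least 2-fold higher were 0 of 41, against 6.54% of all measured genes.

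Past the smaller size of 1.5-fold, 6 of 41 were lower (14.6%), namely Herpud1, P4ha3, Hspb1, Edem1, Ern1 and Plod3, against 11.4% of all genes. Only P4ha1 was at least 1.5-fold higher, 1 of 41 against 14.3%. A log2 ratio below 0 was found for 27 of 41 (65.9%), against 48.4% of all genes. The median log2 ratio was −0.17 over the 41 members and 0.017 over all measured genes. These shares of lower genes lie near those of all genes for both sizes, and above them for the sign alone. Among genes with a mean signal above 500, where 33 of the members lie, 3 of 33 (9.09%) were at least 1.5-fold lower against 8.31% of 3418, and 22 of 33 (66.7%) were below 0 against 47.3%.

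**Figure D1:**
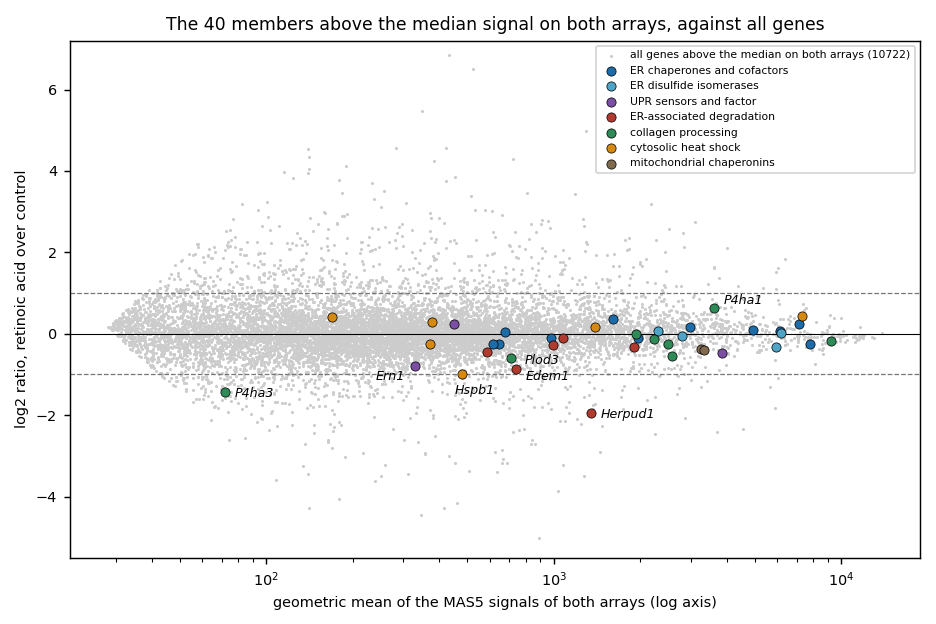
Log2 ratio of retinoic acid over control (vertical axis) against the geometric mean signal of both arrays (horizontal axis, log scale), 1 array per group. Grey points are the 10722 genes whose signal exceeded the median of each array, coloured points are the 40 members among them by role, and dashed lines mark 2-fold. Herpud1 (−1.94) and P4ha3 (−1.42) lie below the lower line, 0 members lie above the upper one, and the 7 members past 1.5-fold are named.

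The culture was checked against markers before the roles were read. All 10 chondrocyte markers, Col2a1, Acan and Sox9 among them, and all 7 superficial zone markers, Prg4 and Erg among them, exceeded the median of each array. The 10 chondrocyte markers were all lower with retinoic acid, with a median log2 ratio of −2.15 and a summed signal of 58867 in control and 26789 with retinoic acid. Of the 7 superficial zone markers 5 were below 0, with a median of −0.46, and their signals summed to 12811 and 14974. Prg4 was 1.67-fold lower, and Clu and Vcam1 were 5.97-fold and 2.30-fold higher. Of the endothelial markers 5 of 6 (Pecam1, Cdh5, Tie1, Tek and Emcn) were at or below the median on both arrays, as were Hba-a1 and Alas2 of the erythroid list, and Adipoq, Cidec and Lep of the fat list. Fabp4 was the fat marker that was measured, with 244 in control and 2689.5 with retinoic acid. Of 7 leukocyte markers, Ptprc and Itgam were at or below the median on both arrays and 5 (Csf1r, Cd68, Adgre1, Lyz2 and Cd14) above it on both, with a summed signal of 519 in control and 586 with retinoic acid. The brightest was Lyz2 (336 and 354), and Cd14 was 1.81-fold higher (56.1 and 102). Smooth muscle and pericyte markers, 5 of 7 measured, summed to 4071 in control and 5849 with retinoic acid. Of those 5, Acta2, Tagln and Rgs5 were higher by log2 ratios of 0.46, 0.99 and 1.55, and Cnn1 and Des had ratios of −0.72 and −1.18. The 7 of 8 measured fibroblast markers summed to 39431 and 40572, with 5 of 7 below 0 and a median log2 ratio of −0.091. Pdgfra went from 2333 to 6023, and Thy1 from 507 to 201. Tendon markers, 4 of 4 measured, summed to 1163 in control and 1010 with retinoic acid. Of them 3 were below 0 (median log2 ratio −0.71), and Mkx was 1.90-fold higher. Osteoblast markers, 5 of 6 measured, summed to 365 and 278, and skeletal muscle markers, 4 of 5 measured, to 377 and 361. Among the osteoblast markers Sp7 and Alpl were 3.01-fold and 2.05-fold lower. Ibsp, Dmp1 and Phex had ratios above 0, those of Dmp1 and Phex as bounds. In bulk RNA fewer cells of a type and less RNA per cell cannot be told apart, and the part of any of these shifts in the values below was not tested.

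Among ER chaperones and their cofactors, 0 of 11 were past 1.5-fold in either direction, against 11.4% of all genes lower and 14.3% higher. A ratio below 0 was found for 5 of 11 (45.5%, against 48.4%). Their median log2 ratio was 0.047, and it was −0.022 after quantile normalization. Hspa5 encodes BiP, the Hsp70 chaperone of the ER and the usual readout of ER stress. Its signal was 8507 in control and 7087 with retinoic acid, 1.20-fold lower, and 2 dimmer probe sets gave log2 ratios of −0.21 and −0.49. All 3 probe sets were thus on the lower side, by less than 1.5-fold.

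Hsp90b1, the ER member of the Hsp90 family also called GRP94, had signals of 6553 in control and 7734 with retinoic acid, 1.18-fold higher. Its other probe set, 4980 and 5179, gave a log2 ratio of 0.056. The lectin chaperones, which hold glycoproteins during folding, were close on both arrays. Calr (calreticulin) read 5971 and 6250.4, and Canx (calnexin) 4771 and 5106. With quantile normalization both crossed 0, to −0.021 and −0.022, so neither has a direction here. Dnajc3, a J-domain co-chaperone of BiP, had the highest ratio of the group, 1423 and 1816, or 1.28-fold higher. All 5 of its probe sets were above 0, from 0.033 to 0.55.

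The smaller cofactors went both ways. Sdf2l1, a partner of J-domain proteins in the ER, read 701 in control and 593 with retinoic acid. Creld2, a gene long known to be induced by ER stress, read 669.9 and 565, and Dnajb9, a BiP co-chaperone known as ERdj4, read 2053 and 1896. These 3 were lower by 1.18-fold, 1.18-fold and 1.08-fold. Manf, which encodes a secreted ER stress-inducible factor, was 1.12-fold higher, 2828 and 3163. Hyou1, the nucleotide exchange factor of BiP, was 1.07-fold lower, with dimmer probe sets at log2 ratios of −0.040 and 0.070. Dnajb11 was 1.03-fold higher, and below 0 after quantile normalization. Every one of these differences is smaller than the SD between probe sets of one gene.

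ER disulfide isomerases form and rearrange disulfide bonds, and 0 of 4 were past 1.5-fold, against 11.4% of all genes lower and 14.3% higher. P4hb, the founding isomerase and also the beta subunit of collagen prolyl 4-hydroxylase, was 1.25-fold lower, 6643 in control and 5332 with retinoic acid. Pdia3, which works with calnexin and calreticulin, read 6151 and 6185 and was within 1.01-fold. Its dimmer probe set, 55.5 and 81.6, gave a log2 ratio of 0.55. Pdia4 (2239 and 2359.7) and Pdia6 (2865 and 2741) differed by 1.05-fold each, in opposite directions. Apart from P4hb, the sign of each of these genes changed under at least 1 alternative: Pdia3 and Pdia4 with quantile normalization, Pdia6 with its dimmer probe set.

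**Figure D2:**
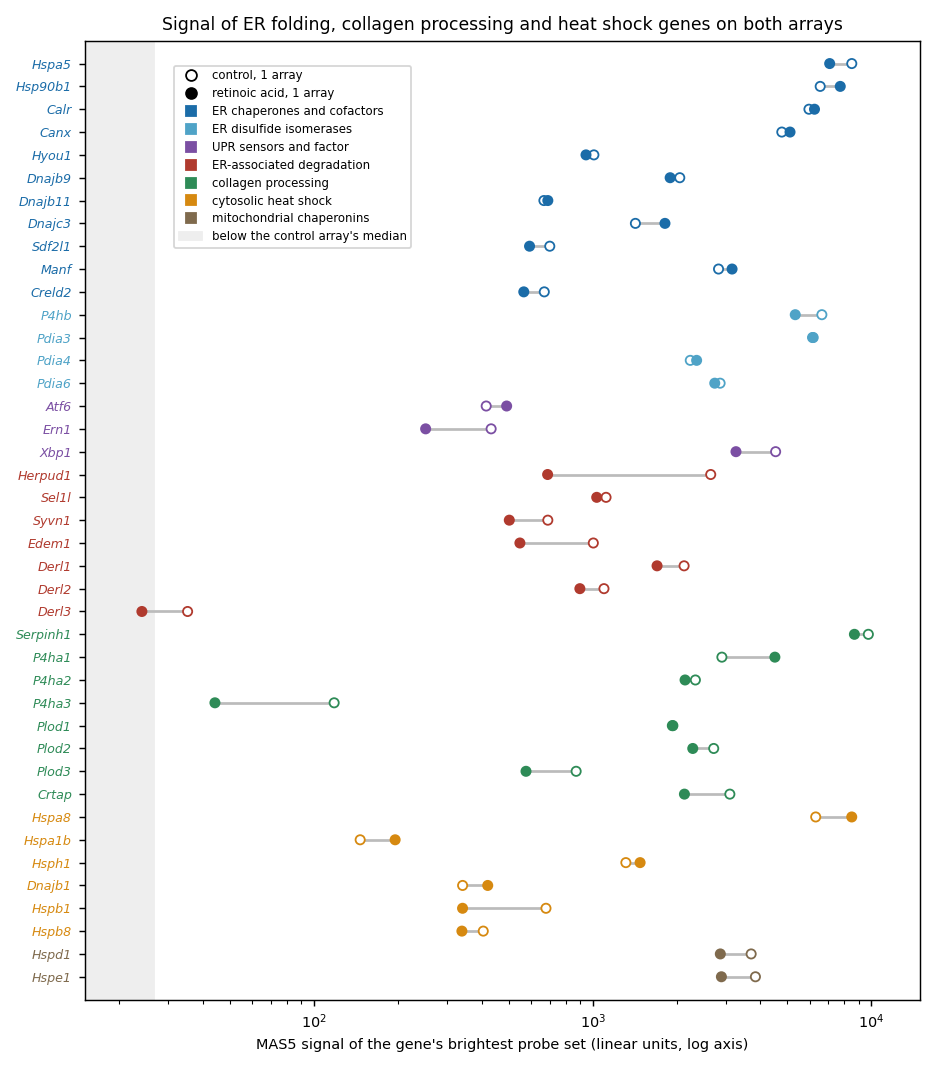
MAS5 signal of the brightest probe set of each of the 41 genes (horizontal axis, linear units on a log scale), with open circles for control and filled circles for retinoic acid, 1 array each, coloured by role. Grey bars join the 2 values of a gene, and the longest is that of Herpud1, from 2651 to 689. Derl3 is the only gene that reaches the shaded range below the control array's median of 26.5.

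Of the 2 sensor genes and Xbp1, 1 of 3 was past 1.5-fold lower (against 11.4% of all genes) and 0 higher (against 14.3%). Ern1 encodes IRE1, the sensor that splices the messenger of Xbp1 during ER stress. It was 1.72-fold lower, 432 in control and 251 with retinoic acid, but its dimmer probe set above the median, 45.1 and 44.2, gave a log2 ratio of −0.026. Xbp1, the transcription factor gene made active by that splicing, read 4534 and 3267, 1.39-fold lower. Its 3 dimmer probe sets were also lower, by log2 ratios of −0.58, −0.47 and −0.20. The array does not separate spliced from unspliced Xbp1. Atf6 encodes the sensor that is released by cleavage in the Golgi. Its probe sets were split, with the brightest at 0.24 (415 and 491) and the other 2 at −0.16 and −0.39, so no direction is given.

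Genes of ER-associated degradation carry misfolded proteins out of the ER to the proteasome, and all 7 had a ratio below 0, the share over all genes being 48.4%. The median log2 ratio of the 7 was −0.32. Herpud1 encodes a membrane protein that assembles the degradation complex around the ubiquitin ligase Hrd1. Its signal was 2651 in control and 689 with retinoic acid, 3.85-fold lower, and its other probe set read 2059 and 469, a log2 ratio of −2.13. Of all measured genes 0.833% had a lower ratio than Herpud1, which was the lowest of the 41 members.

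Edem1, a lectin that marks glycoproteins with trimmed mannose for destruction, was 1.83-fold lower, 1005 in control and 548 with retinoic acid. Its other probe set gave a log2 ratio of −0.72. Syvn1, which encodes the ligase Hrd1 itself, read 689.8 and 502, 1.37-fold lower, with −0.58 for its other probe set. For Herpud1, Edem1 and Syvn1 each probe set was therefore on the same side.

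Derl1 and Derl2 encode derlins, membrane proteins of the export channel. Derl1 was 1.25-fold lower, 2127 and 1701, with 2 probe sets at −0.50 and −0.46 and the dimmest at 0.14. Derl2 was 1.22-fold lower, 1097 and 899. Sel1l, the adaptor that holds the Hrd1 complex together, was 1.08-fold lower by its brightest probe set (1116 and 1033), and its other 4 were lower as well, from −0.20 to −0.33. Derl3, a derlin gene of secretory tissues, was above the median only in control (35.1) and below it with retinoic acid (24.1), at least 1.18-fold lower. So every gene of the group had a ratio below 0, by unequal amounts, from 1.08-fold for Sel1l to 3.85-fold for Herpud1. The brightest probe sets of Sel1l and Derl2 had ratios smaller than the SD of 0.30 between probe sets of one gene. That of Derl3 is a bound, and was −0.55 when no signal was raised to the median.

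**Figure D3:**
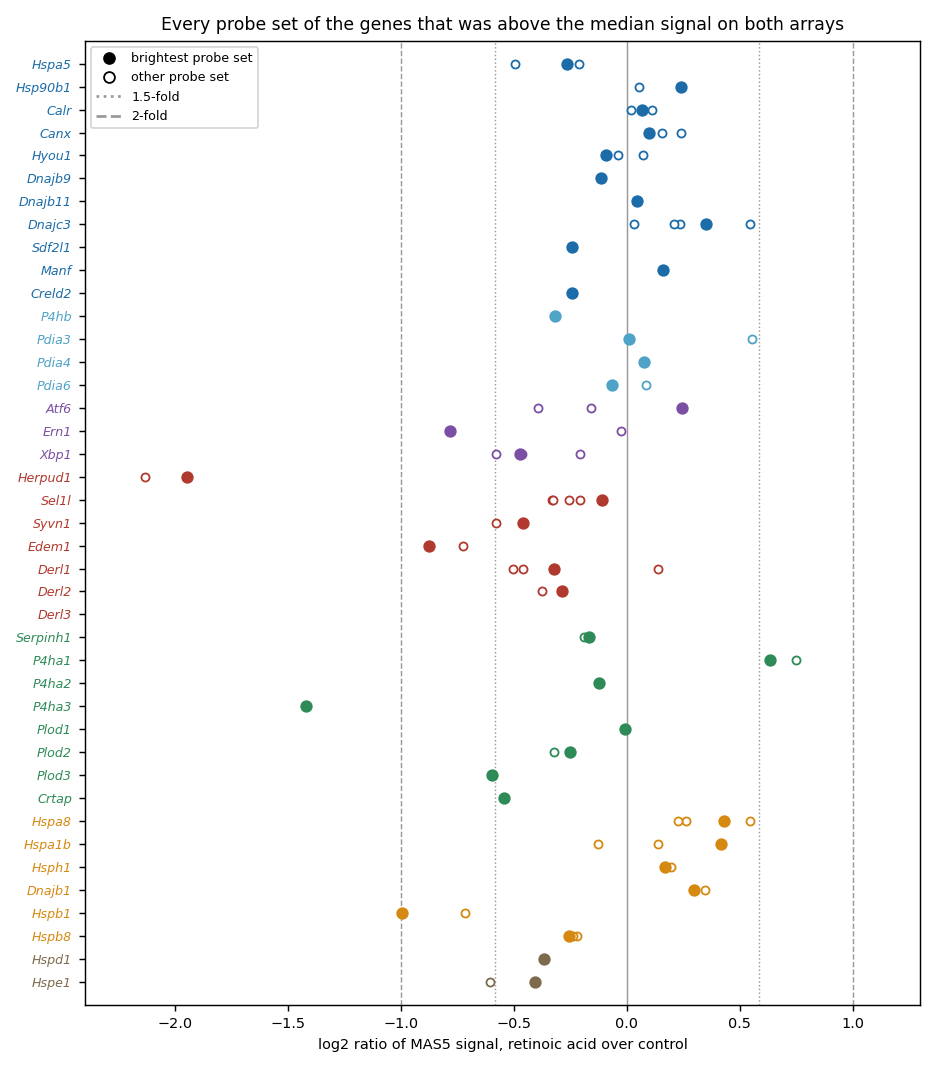
Log2 ratio of retinoic acid over control for each of the 86 probe sets of the members that were above the median signal on both arrays (1 array per group), 1 line per gene, coloured by role as in the plot of signals. Filled circles are a gene's brightest probe set and open circles its others, dotted lines mark 1.5-fold and dashed lines 2-fold. Of the 27 genes with several such probe sets 22 have all of them on one side of 0, and Derl3 has none to show.

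Collagen processing genes had a median log2 ratio of −0.21, with 7 of 8 below 0 (87.5%, against 48.4% of all genes). Past 1.5-fold, 2 of 8 were lower (25.0%, against 11.4%) and 1 of 8 higher, against 14.3%. Serpinh1 encodes Hsp47, the chaperone that binds only procollagen, and read 9755 in control and 8694 with retinoic acid, 1.12-fold lower. Its other probe set gave −0.19. This value and those of Hspa5 and Hspa8 come from probe sets with a signal above 8000.

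The catalytic subunits of prolyl 4-hydroxylase, the enzyme whose product stabilises the collagen triple helix, went in different directions. P4ha1 was 1.55-fold higher, 2908 in control and 4506 with retinoic acid, and its other probe set read 1878 and 3162, a log2 ratio of 0.75. It was the highest of the 41 members, and 12.9% of all genes had a higher ratio. P4ha2 was 1.09-fold lower, 2336 and 2145. P4ha3 was 2.68-fold lower, 118 and 44.0, on 1 dim probe set, a log2 ratio of −1.42, which was −0.97 with the median signal added to both arrays. P4hb, their common partner, was lower as given above, so the 4 subunit genes of this enzyme did not share a direction.

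Lysyl hydroxylases prepare collagen for crosslinks and sugar addition. Plod3, which also adds the sugars, was 1.51-fold lower, 872 in control and 576 with retinoic acid. Plod2, which acts on the telopeptides, was 1.19-fold lower, 2718 and 2286, with −0.32 for its other probe set. Plod1 read 1939 and 1931, within 1.01-fold. Crtap, which encodes the cartilage-associated protein of the prolyl 3-hydroxylase complex, was 1.46-fold lower, 3105 and 2133. In this group Plod3, Crtap and P4ha3 were lower, and P4ha1 higher, by more than the SD of 0.30 between probe sets of one gene. That SD holds no variation between cultures, and Plod3, Crtap and P4ha3 had 1 probe set each. Plod1 was near 0.

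Of the 6 cytosolic heat shock genes 2, Hspb1 and Hspb8, had a ratio below 0 (33.3%, against 48.4% of all genes). Past 1.5-fold, 1 was lower (16.7%, against 11.4%) and 0 higher (against 14.3%). The median log2 ratio was 0.23. Hspa8, the constitutive Hsp70, read 6314 in control and 8504 with retinoic acid, 1.35-fold higher, and its 3 other probe sets were also higher, from 0.23 to 0.55. Hspa1b, the stress-inducible Hsp70, was 1.34-fold higher, 146 and 195. Its dimmer probe sets gave 0.14 and −0.13, and near-identical Hspa1a can share its probes, so its direction is uncertain.

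Dnajb1, the main J-domain partner of Hsp70 under stress, was 1.23-fold higher, 341 in control and 419.8 with retinoic acid, and Hsph1, an Hsp110 exchange factor, 1.12-fold higher, 1315 and 1479. The second probe set of each was higher too, by 0.35 and 0.20. Hspb1, which encodes the actin-linked small heat shock protein Hsp27, was 1.99-fold lower, 679 and 341, and its other probe set gave −0.72. It passed 2-fold under 3 other scalings. Hspb8, a small heat shock protein of the Bag3 autophagy complex, was 1.19-fold lower, 405 and 339, with all 3 probe sets between −0.25 and −0.22.

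The mitochondrial chaperonin pair, which folds proteins imported into the matrix, was lower on both sides of the complex. Hspd1 (Hsp60) was 1.29-fold lower, 3703 in control and 2870.2 with retinoic acid. Hspe1 (Hsp10) was 1.32-fold lower, 3836 and 2896, and its other probe set gave −0.61. These genes lie head to head on chromosome 1 and share a promoter. The heat shock element, read as GAANNTTCNNGAA or TTCNNGAANNTTC on either strand, was found in 3 of 35 members and in 0.662% of all genes of the table. In Hspd1 and Hspe1 it was the same stretch of 18 bases, made of 2 overlapping matches, printed here with 10 bases on each side to show the shared site.
Hspe1 (chr1:55088049-55088086, plus strand): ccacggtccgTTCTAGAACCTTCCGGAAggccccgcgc
Hspd1 (chr1:55088049-55088086, minus strand): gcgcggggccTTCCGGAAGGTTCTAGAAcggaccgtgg

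The third member with that element was Hsph1, where it lay after the start. It was higher while the chaperonin pair was lower, so the members with this element did not share a direction.

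Ratios of the genes with an ERSE also lay on both sides of 0. The 9 of them had log2 ratios from −0.46 (Syvn1) to 0.35 (Dnajc3), with a median of −0.064 and 5 below 0. Among them the −0.24 of Derl3 is a bound, and was −0.55 when no signal was raised to the median. The other 26 members with a promoter window ranged from −1.94 to 0.63, with a median of −0.25 and 19 below 0. No test of that difference was run. Of both ERSE-II genes, Herpud1 had the lowest ratio of the list (−1.94) and Dnajb11 one of 0.047. The unfolded protein response element TGACGTGG was in 0 of the 35 windows, against 0.714% of all genes of the table. A match is a stretch of letters and not a measured site, and other elements were not searched.

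**Figure D4:**
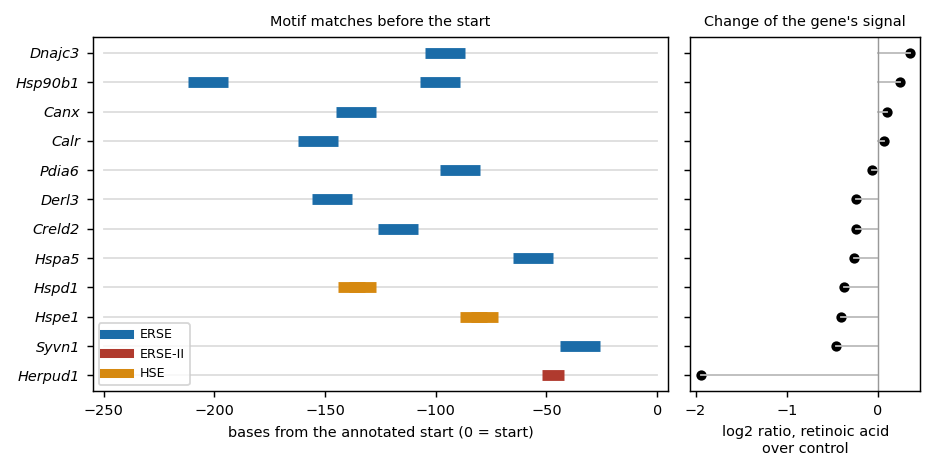
Left, positions of ERSE, ERSE-II and heat shock element (HSE) matches in the 250 bases before the annotated start of 12 members, in bases from the start, with 1 line per gene. Right, the log2 ratio of each gene's signal, retinoic acid over control, 1 array per group. Genes are sorted by that ratio: the 9 with an ERSE lie between −0.46 and 0.35, and Herpud1, with ERSE-II, at −1.94. The value of Derl3 is a bound.

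Other genes of the same pathways were read from lists, to place the members. The PERK and ATF4 branch, the third arm of the unfolded protein response, is also used by other stresses. In it 6 of 11 genes were at least 2-fold lower (54.5%, against 4.34% of all genes) and 0 higher (against 6.54%). For 1 of the 6, above the median in control only, the fold is a bound. The median log2 ratio of this arm was −1.16. Chac1, a glutathione-degrading enzyme gene induced by that arm, was 6.06-fold lower (2076 in control and 343 with retinoic acid). Ppp1r15a, whose product reverses the translation block, was 5.75-fold lower (927 and 161), and Trib3, a pseudokinase gene, 5.09-fold lower (1786 and 351). The 11 ER chaperones ranged from −0.26 to 0.35 on the same scale.

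Of 46 other measured genes of ER folding and translocation, 4 were at least 1.5-fold lower (8.70%, against 11.4% of all genes). At least 1.5-fold higher were 2 (against 14.3%). A ratio below 0 was found for 34 (73.9%, against 48.4%), and the median was −0.11. The oxidase gene Ero1a, which recharges the isomerases, was 1.75-fold lower (3669 and 2101) and the isomerase gene Pdia5 1.66-fold lower (876 and 526), while Spcs3, a subunit gene of the signal peptidase, was 1.74-fold higher (912 and 1588). Of 24 other genes of ER-associated degradation, 14 were below 0 (58.3%, against 48.4% of all genes), with a median of −0.084. At least 1.5-fold lower were 2 (8.33%, against 11.4%), and at least 1.5-fold higher 2 (against 14.3%). Erlin1 was 2.57-fold lower (1221 and 476), whereas Edem3, a relative of Edem1, was 1.69-fold higher (983 and 1660.5) and the ubiquitin ligase gene Marchf6 1.59-fold higher (1435 and 2277). Of 10 other sensors and ER membrane factors 0 were past 1.5-fold, against 11.4% of all genes lower and 14.3% higher. The largest ratios were those of Creb3l1, a factor for collagen secretion, 1.43-fold lower (562 and 392), Creb3, 1.35-fold lower (807 and 595), and Creb3l2, 1.23-fold lower (896 and 727).

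Of 24 measured genes of collagen processing and export outside the members, 5 were past 1.5-fold lower (20.8%, against 11.4% of all genes) and 0 past 1.5-fold higher (against 14.3%). A ratio below 0 was found for 19 of 24 (79.2%, against 48.4%), and the median was −0.32. P3h2, a prolyl 3-hydroxylase gene, was 4.90-fold lower (380.2 and 77.6). P3h1, whose product works in one complex with that of Crtap, was 1.74-fold lower (597 and 344), and Sec23a, a coat gene of the vesicles that export procollagen, 1.63-fold lower (2915 and 1783). Of the fibrillar collagen genes whose products these enzymes modify, 8 of 8 were below 0 (against 48.4% of all genes), with a median of −0.32. That median was −0.49 with unique and −0.51 with second brightest probe sets. It was −0.77 over the 3 genes left without signals above 8000, which 5 of the 8, Col11a1 among them, exceeded on at least 1 array. Col11a2 was 3.18-fold lower (2013 and 634), Col5a1 1.71-fold lower (5191 and 3040.1), and Col11a1 1.40-fold lower (10236 and 7313).

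Other cytosolic heat shock genes at least 1.5-fold higher were 4 of 37 (against 14.3% of all genes), and 3 were lower (8.11%, against 11.4%). Among the 37 is Ptges, a prostaglandin synthase gene that was matched in place of the listed Ptges3. It was 1.36-fold higher (132 in control and 179 with retinoic acid). The median of the 37 was 0.028. Over the other settings that median ran from −0.089 with quantile normalization to 0.21 with second brightest probe sets. Hspa4l, an Hsp110 relative of Hsph1, was 4.16-fold higher (115 and 477), while the small heat shock gene Hspb6 was 3.53-fold lower (1317 and 373) and Hspa2 1.86-fold lower (258 and 139). Of 12 other genes of mitochondrial protein quality control 10 were below 0 (83.3%, against 48.4% of all genes), with a median of −0.34. Dnaja3 was 1.86-fold lower (619 and 332), the protease gene Afg3l2 1.69-fold lower (306 and 181) and the matrix protease gene Lonp1 1.44-fold lower (950.1 and 661).

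**Figure D5:**
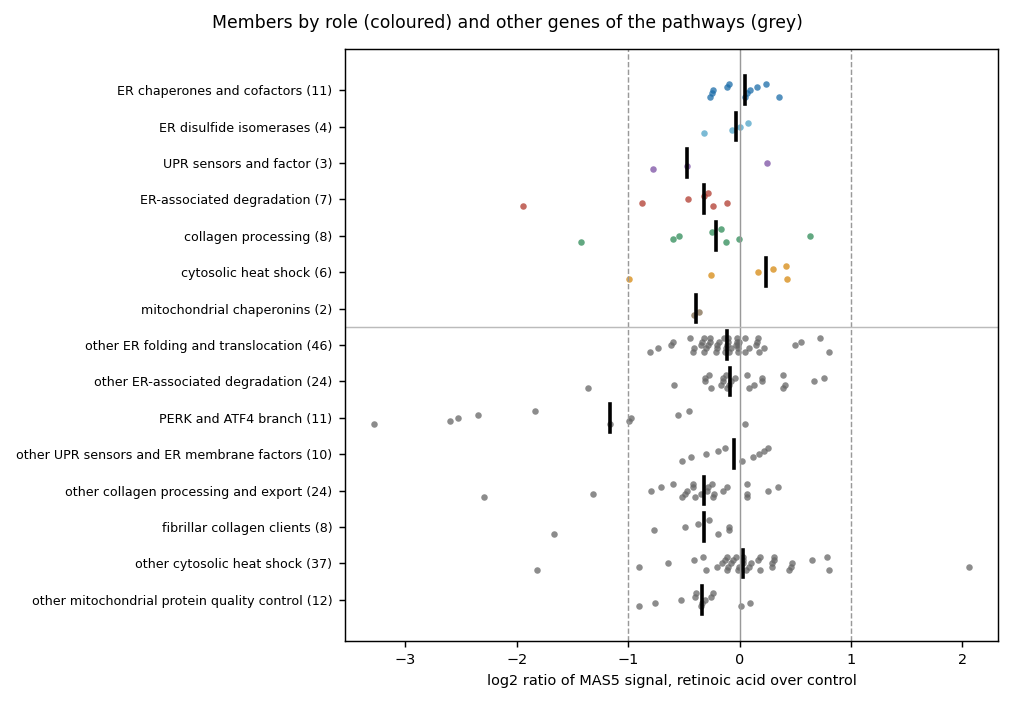
Log2 ratio of retinoic acid over control (horizontal axis, 1 array per group) for each measured gene, with members by role in colour above the line and other genes of the pathways in grey below it. Black bars are medians, dashed lines mark 2-fold and numbers in brackets are measured genes. The ER chaperones lie around 0 (median 0.047), the 7 degradation members all lie below it, and the PERK and ATF4 branch has the lowest median, −1.16.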

How the data were processed

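The deposited values are intensities, 1 linear MAS5 signal per probe set and array. The submitters' processing notes name MAS5, with version and scaling target not given in the sources used here. Linearity was read from the range, up to 13926. Values were used as deposited (2% trimmed means 183 and 193). Of 45101 probe sets 34945 had 1 gene symbol in the platform annotation, 932 several and 9160 none, and 64 were controls.

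Signals at or below the array's median (26.5 control, 29.7 retinoic acid) were raised to it. A gene was measured if its probe set of highest mean log2 signal exceeded it on either array (11884). Folds of genes above it on 1 array are bounds. No test was possible with 1 array per group. The members and gene lists were chosen with earlier results of these data known. Named genes are all members and, per other list, the 3 of largest absolute ratio above the median on both arrays. Besides these, markers are named in the check of the tissue, and Ptges for its wrong match. The steps were tested on simulated data. Python 3.11.15, numpy 2.4.6, pandas 2.3.3, statsmodels 0.14.6 and matplotlib 3.10.9 were used. Alternatives covered the floor, scaling, probe set choice and genes counted. Proteins were not used here.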

Additional observations from a re-analysis of the deposited data

How the results depend on the processing

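Over 13 other settings, of which that with only genes of a mean signal above 500 was chosen after seeing the data, none turned the sign of a member past 1.5-fold, and 0 members were at least 2-fold higher under any. The median of the members ran from −0.24 to −0.12. The count at least 2-fold lower was 1 with a floor at the 70th percentile, with the median signal as an offset, with the second brightest probe set and above a signal of 500, and 3 at most. The count at least 1.5-fold lower ran up to 8 and was 3 above a signal of 500, and the count at least 1.5-fold higher was 0 with quantile normalization. With second brightest probe sets 16 of 27 members were below 0. The median of ER-associated degradation was −0.46 with a floor at the 30th percentile and with no floor, where Derl3 went from −0.24 to −0.55. That median was −0.54 over 6 genes with unique or second brightest probe sets. That of the sensors was −0.59 with quantile normalization, −0.20 with unique and −0.16 with second brightest probe sets. That of the chaperonins was −0.49 with quantile normalization and with unique probe sets, and −0.61 with the second brightest, where only Hspe1 had a value. That of the isomerases was 0.32 over 2 genes with second brightest probe sets, and that of cytosolic heat shock 0.050 over 4 genes with unique probe sets. Beyond these values and gene counts, the cause of the shifts was not tested. No paired analysis was possible because each group held 1 culture, and no replicate could be left out.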
